A study of Glycine max with 36 samples.

Results

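RuBisCO fixes carbon dioxide in the Calvin cycle and is a very abundant leaf protein. Its large subunit is encoded in the chloroplast genome, and its small subunit by a family of nuclear RBCS genes whose products are imported into the chloroplast. In plants, RBCS transcripts are typical of green leaf tissue, respond to light and can follow the circadian clock. The 3 identifiers described here, GLYMA19G06370, GLYMA19G06340 and GLYMA13G07610, were given as RuBisCO small subunit genes, out of 47011 gene identifiers in the deposited expression table.

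They were measured by RNA-seq in leaves of soybean, Glycine max, cultivar Williams 82, taken from the unifoliolate pair that opens above the cotyledons. Seedlings were grown for 9 days at 28 °C with 16 h of light and 8 h of dark, then kept in what the labels call constant conditions, and were 11 days old when sampling began. Humidity was given as 50% and light as 100 µmol per square metre per second for all groups. The 12 groups are time points every 4 h from zeitgeber time 0 (ZT0) to ZT44, with 3 libraries each and 36 in all. Each library pooled leaves of 3 seedlings, and all groups share the cultivar, the tissue and the light history. The time points ask which transcripts keep a daily course without a daily change of light. ZT0 and ZT24 are called dawn and ZT12 and ZT36 dusk below, only as names for points 12 h apart. With 16 h of light counted from ZT0, the dark of the growth days would have begun at ZT16, not at ZT12. The word dusk below therefore does not mean lights-off, and the levels at ZT16 are given separately.

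Values are FPKM, fragments scaled by gene length and by the mapped total. The identity of the genes rests on the given list. None of the identifiers (0 of 47011) matched the RefSeq gene table used for names (assembly Glycine_max_v4.0), which holds the symbols RBCS1 on chromosome 13 and RBCS2 on chromosome 19 but pairs neither with an identifier of the file. For the same reason leaf marker genes and other Calvin cycle genes could not be looked up. The naming scheme places GLYMA19G06370 and GLYMA19G06340 on chromosome 19, where they are next to each other in the order of the table's identifiers, and GLYMA13G07610 on chromosome 13. The 5 identifiers on each side had means between 0.00973 and 49.6 FPKM on chromosome 19 and between 0.000628 and 34.5 on chromosome 13. High expression at these places was thus seen for the 3 members and not for the flanking identifiers. Copies of RBCS genes can be near-identical, so reads may be split between them, and single-gene levels are uncertain in this respect; sequences were not used here.

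Absolute depth was unknown. Low values lay on steps of whole reads (94.5% within 0.06 of a step, over 4482 low genes), which gave relative depths from 0.795 to 1.14 times the median library. The summed FPKM ran from 651475 to 749531. ZT40 replicate 2 and replicates 2 and 3 of ZT44 scored 34 to 39.3 on principal component 4 (3.33% of the variance), against -24.9 to 17.6 in the other 33. This component was picked, and its sign set, because it put these 3 libraries furthest from the rest. The gap is thus a description and no check on them. In these libraries of ZT44, GLYMA19G06370 and GLYMA19G06340 were listed at 0. Because of these zeros, both libraries are left out of all means and tests below unless stated. Thus 34 libraries remain and ZT44 is replicate 1 alone. The 2 libraries left out were closer to each other (Pearson's r of log2 values 0.9943) than to replicate 1 (0.9687 and 0.9722). The ZT44 values below thus rest on the library that differed most from the other replicates of that time.

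The members were chosen by family name and selected on their high FPKM and on these zeros, so level, rank, share and zeros are described with no test. GLYMA19G06370 had the highest mean of all identifiers, 21508 FPKM over 34 libraries, and ranked first in each of them. GLYMA19G06340 followed with a mean of 18050 FPKM and had rank 2 in 30 libraries and rank 3 in 4. GLYMA13G07610 had a mean of 7798 FPKM and had rank 3 in 15 libraries, with rank 9 as its lowest in the other 19. The next identifier by mean had 6774 FPKM.

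At ZT0, GLYMA19G06370 was at 28945, 27716 and 30177 FPKM in replicates 1, 2 and 3. It was at 18805, 20287 and 21723 FPKM at ZT4, at 16199, 14801 and 20417 at ZT8, and at 16543, 22376 and 17120 at ZT12. All 9 libraries from ZT4 to ZT12 lay below the 3 of ZT0. The level was back at 26522, 27154 and 26416 FPKM at ZT16 and stood at 28920, 25896 and 26549 at ZT20. ZT16 was the time of tightest agreement, with an SD of 399 FPKM. On the second day the values were 28993, 21417 and 27059 FPKM at ZT24, 12963, 15295 and 20731 at ZT28, 16145, 13262 and 13240 at ZT32, and 14117, 14877 and 18593 at ZT36. The 3 lowest means of the course were those of ZT28, ZT36 and ZT32. At ZT40 replicates 1 and 3 were at 18178 and 20165 FPKM while replicate 2 reached 35467, the highest value of any library, and at ZT44 replicate 1 had 24211. The mean ran from 28946 ± 1230 FPKM (SD, n = 3) at ZT0 to 14215 ± 1671 at ZT32.

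The order of the time points by mean was ZT0, ZT20, ZT16, ZT24, ZT40, ZT44, ZT4, ZT12, ZT8, ZT28, ZT36 and ZT32 for GLYMA19G06370, and it was the same for GLYMA19G06340. Of the 11 pairs of neighbours in this order, 10 had overlapping ranges of their libraries; the exception was the step from ZT44, a single library, to ZT4. The course is thus a high level from ZT16 to ZT24 and a low level from ZT4 to ZT12 and from ZT28 to ZT36, without a resolved order inside each stretch. GLYMA19G06340 ran lower than its neighbour throughout, from 24428 ± 1175 FPKM at ZT0 to 11810 ± 1272 at ZT32 (SD, n = 3).

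GLYMA13G07610 started at 11339, 11630 and 11991 FPKM at ZT0 and was at 6930, 7415 and 8227 at ZT4. At ZT8 it was at 5911, 4951 and 6809 FPKM and at ZT12 at 5188, 6471 and 5774. The ZT12 libraries were all below those of ZT4. It returned to 9486, 9651 and 9509 FPKM at ZT16, to 11963, 10652 and 10202 at ZT20, and to 11248, 9518 and 11897 at ZT24. The values then were 4978, 6459 and 8114 FPKM at ZT28, 5407, 4480 and 5008 at ZT32, and 3527, 3999 and 5589 at ZT36. ZT36 gave the lowest mean of this member, 4372 ± 1080 FPKM (SD, n = 3), where the chromosome 19 members had theirs at ZT32. The ranges of ZT32 and ZT36 overlapped for all 3 members, so this difference in time is not resolved. ZT40 had 5989, 9556 and 6330 FPKM and ZT44 had 8928 in replicate 1, against 13884 and 13314 in the 2 ZT44 libraries left out. Over the 34 libraries the highest value was 3.4 times the lowest, against 2.74 and 2.7 times for GLYMA19G06370 and GLYMA19G06340.

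**Figure D1:**
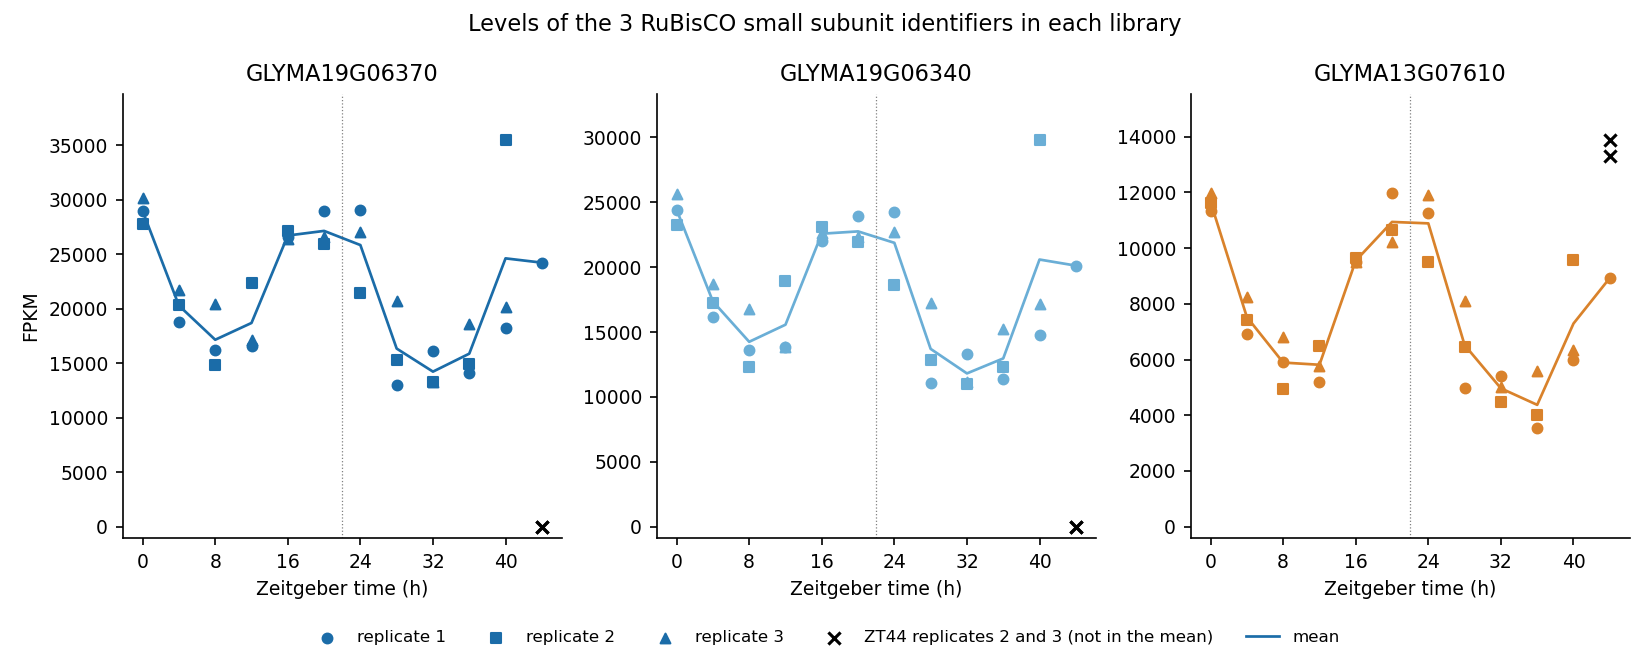
FPKM of each identifier (y axis, linear from 0) against zeitgeber time in h (x axis), with 1 point per library, marker shape by replicate and a line through the means; crosses are ZT44 replicates 2 and 3, and the dotted line separates the days. All 3 identifiers are high around ZT0, ZT16 to ZT24 and low from ZT4 to ZT12 and ZT28 to ZT36, the crosses lie at 0 for the chromosome 19 identifiers and at 13884 and 13314 FPKM for GLYMA13G07610, and ZT40 replicate 2 (35467 FPKM for GLYMA19G06370) stands above its replicates.

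Added up, the 3 identifiers took 9.29% ± 0.417 of all FPKM at ZT0 (SD, n = 3), then 6.48% ± 0.444 at ZT4 and 5.29% ± 0.854 at ZT8. The share was 5.85% ± 0.878 at ZT12, 8.64% ± 0.0731 at ZT16 and 8.97% ± 0.517 at ZT20. On the second day it was 8.36% ± 1.06 at ZT24, 5.31% ± 1.2 at ZT28, 4.51% ± 0.432 at ZT32 and 4.84% ± 0.707 at ZT36. By mean, the share was thus highest from ZT16 to ZT24 and at ZT0, and lowest at ZT32 and ZT36. All 11 pairs of neighbours in the order by mean had overlapping ranges, so the order of neighbouring times is not resolved. At ZT40 it was 7.52% ± 2.16, with 9.98% in replicate 2 against 5.97% and 6.61% in replicates 1 and 3, and at ZT44 it was 8.01% in replicate 1.

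The 6 dawn libraries ranged from 7.15% to 9.75% and the 6 dusk libraries from 4.26% to 6.86%, so these groups did not overlap. How many other identifiers separate these libraries was not counted, and 82.6% of all genes tested differed between dawn and dusk. The dawn share was higher by 3.48 percentage points, by 3.44 on the first day and 3.52 on the second. This is a description, because the share was among the values used to choose the members. The tests below use the same libraries, with earlier results on them known, and are no independent support for it. In bulk leaf RNA, fewer cells of a type and less RNA per cell cannot be told apart.

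**Figure D2:**
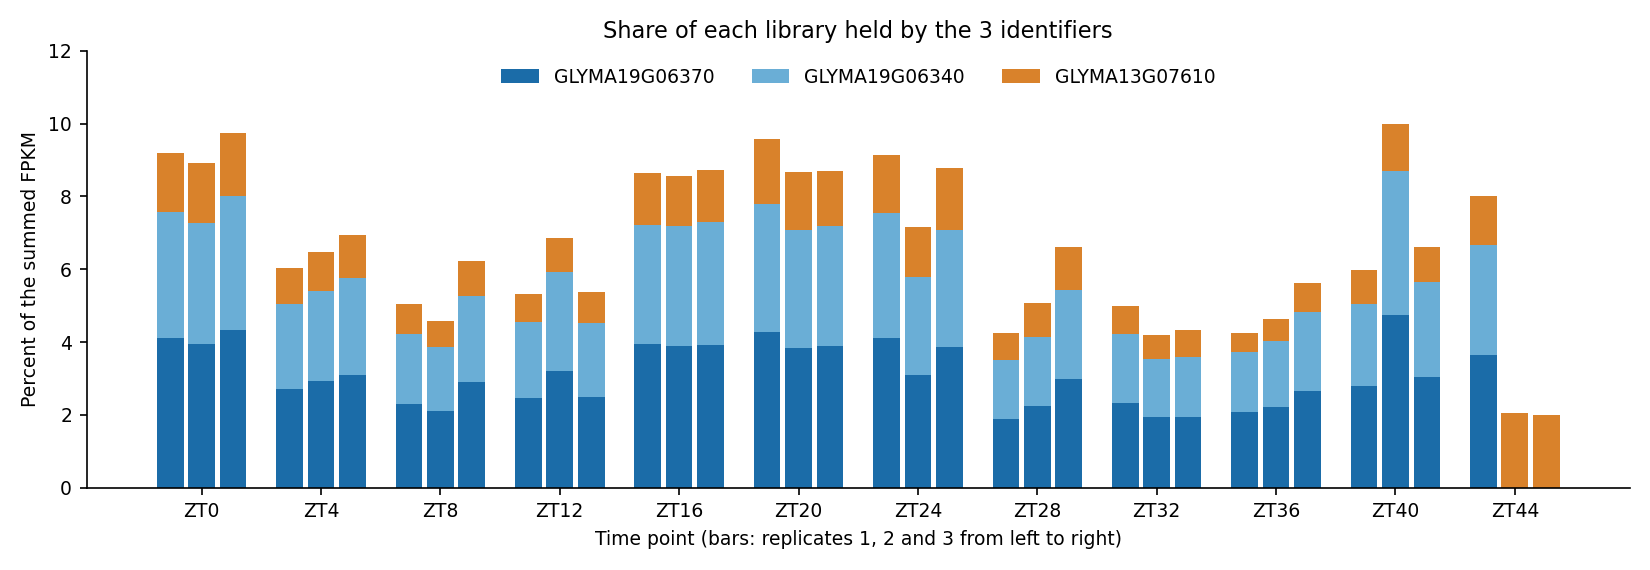
Percent of the summed FPKM of each of the 36 libraries (y axis, from 0) held by the 3 identifiers, stacked by identifier, with the replicates of each time point side by side. The bars reach 8.93% to 9.75% at ZT0 and 4.26% to 5.63% at ZT36, and in ZT44 replicates 2 and 3 the GLYMA13G07610 part alone remains, at 2.05% and 1.99%.

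All 3 members changed over the 12 time points, as did 94.5% of the 27458 genes tested (mean of at least 1 FPKM). The adjusted p-values were 6.63e-05 for GLYMA19G06370, 3.66e-05 for GLYMA19G06340 and 4.5e-08 for GLYMA13G07610 (limma moderated F-test on log2(FPKM + 1), Benjamini-Hochberg over all genes). With so large a share of all genes called, the call itself says little about the members. Of all genes tested, 82.6% differed between dawn and dusk. The 3 members were higher at dawn, as were 15.5% of the genes, whereas 67.1% were lower at dawn. Without the filter on low values, the change over the time points did not pass for GLYMA19G06370 (limma, adjusted p = 0.505) or GLYMA19G06340 (limma, adjusted p = 0.302).

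GLYMA19G06370 was higher at dawn by 0.67 ± 0.14 on the log2 scale (SE, adjusted p = 9.08e-05, limma), a 1.59-fold difference. GLYMA19G06340 was higher by 0.71 ± 0.14 (adjusted p = 4.13e-05, limma) and GLYMA13G07610 by 1.17 ± 0.13 (adjusted p = 2.86e-09, limma), or 2.26-fold. The difference was present on both days, at 0.64 and 0.70 for GLYMA19G06370 and at 1.01 and 1.34 for GLYMA13G07610. The median of the 3 members was 0.71, and that of all genes tested was -0.40. Because the median gene itself was lower at dawn by this amount, the contrast was also taken after median-ratio rescaling, which sets the median gene near 0 (-0.01). Relative to the median gene the members were higher by 1.16, 1.20 and 1.66 in the order above, or 2.24-fold, 2.29-fold and 3.16-fold, where 64.4% of genes were called, 32.4% being higher at dawn and 32% lower. The size of the dawn-dusk difference thus depended on the scale, and its direction did not. On the deposited scale the members' direction was the less common, and on the rescaled one it was about as common as the other. Without the filter on low values the dawn-dusk difference did not pass for GLYMA19G06370 or GLYMA19G06340 (limma, adjusted p = 0.0979 and 0.0512).

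A 24-h rhythm (a cosine and a sine with a term for the day) was called for all 3 members and for 94.2% of the genes tested. Its amplitude, the rise of the curve above its mean, was 0.45 ± 0.06 (log2, SE, adjusted p = 1.61e-07, limma F-test) for GLYMA19G06370, with the peak at ZT20.5. For GLYMA19G06340 it was 0.46 ± 0.06 (adjusted p = 1.02e-07, limma) with the peak at ZT20.6, and for GLYMA13G07610 it was 0.61 ± 0.06 (adjusted p = 4.5e-11, limma) with the peak at ZT21.7. The SE printed with an amplitude is the mean SE of the cosine and sine terms, as an approximate error. Without the filter on low values the rhythm did not pass for GLYMA19G06370 or GLYMA19G06340 (limma, adjusted p = 0.191 and 0.109). Peak-to-trough folds were 1.87, 1.9 and 2.32, and GLYMA13G07610 alone passed 2-fold, as 29.7% of all genes tested did. The median amplitude was 0.46 for the members, 0.36 for all genes tested and 0.55 for the 792 identifiers that averaged 100 FPKM or more, of which 61.7% had an amplitude at least that of GLYMA19G06370 and 44.2% at least that of GLYMA13G07610. Peaks from ZT18 to ZT24 were found for 15.3% of all genes with a rhythm and for 30.6% of those with at least 100 FPKM.

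Relative to the median gene the amplitudes were 0.54, 0.56 and 0.76 and the peaks came later, at ZT22.7, ZT22.7 and ZT23.2. On that scale all 3 members passed 2-fold (2.12, 2.17 and 2.87), as did 22.5% of genes, while 85.1% had a rhythm and 84.9% changed over the time points. Peaks from ZT18 to ZT24 were then found for 25% of the genes with a rhythm and for 32.7% of those with at least 100 FPKM. Without ZT40 replicate 2 the amplitudes as deposited were 0.43, 0.44 and 0.60. With all 36 libraries and the zeros kept, no rhythm was called for GLYMA19G06370 (adjusted p = 0.279, limma) or GLYMA19G06340 (adjusted p = 0.287, limma), the fitted peaks moved to ZT7.8, and their dawn-dusk calls were lost as well (adjusted p = 0.633 and 0.606, limma). With the zeros treated as missing, both amplitudes were again 0.45 and 0.46, and that of GLYMA13G07610 was 0.65.

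**Figure D3:**
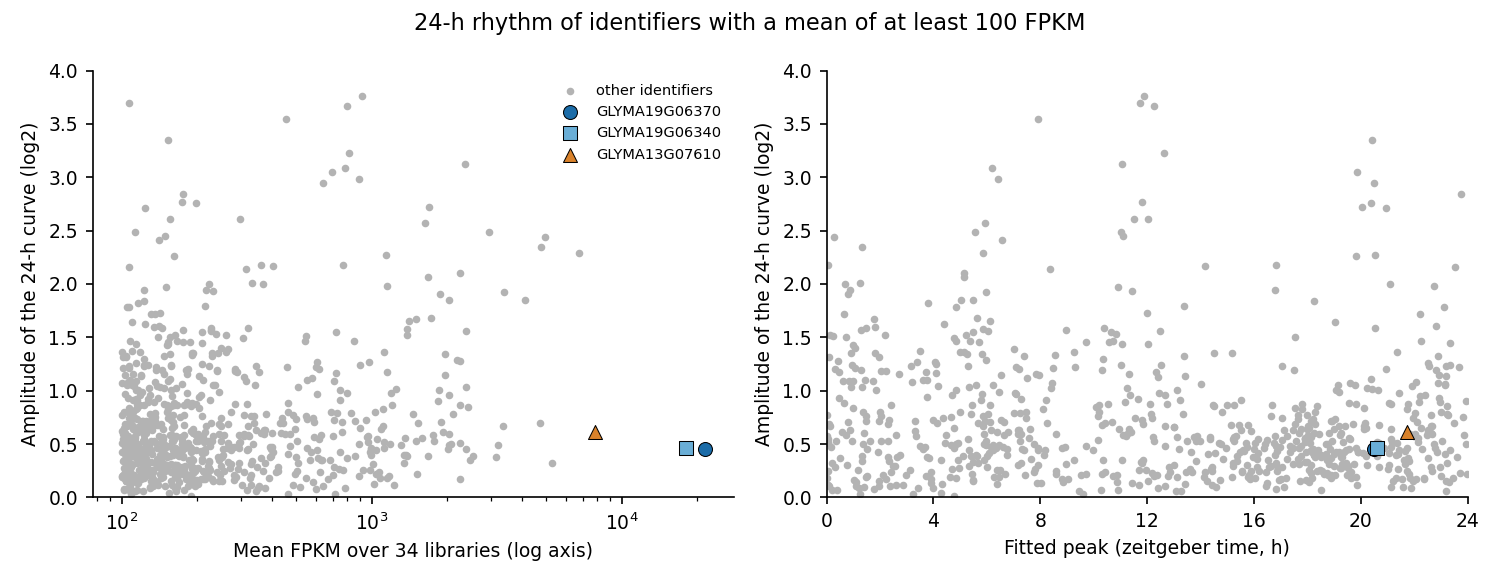
Amplitude of the fitted 24-h curve (y axis, log2) of the 792 identifiers with a mean of at least 100 FPKM, against the mean FPKM over 34 libraries (left, log axis) and against the fitted peak time in h (right); grey points are other identifiers. The 3 RuBisCO small subunit identifiers lie at the far right in level. Their amplitudes are 0.45, 0.46 and 0.61, the first 2 below and the last above the median of 0.55, and their peaks fall between ZT20.5 and ZT21.7.

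The clearest difference among the members was between GLYMA13G07610 and the chromosome 19 members. It was measured as a ratio inside each library, which no scaling of the library can change. How many other pairs of genes differ as much was not counted, and 82.6% of all genes tested differed between dawn and dusk. The difference is thus not shown to be particular to the members. GLYMA19G06370 and GLYMA19G06340 kept nearly the same ratio in all 34 libraries, with a log2 ratio between 0.20 and 0.31 and a median of 0.25. The ratio of GLYMA19G06370 to GLYMA13G07610 moved between 1.17 and 2.00, with a low mean at dawn and a high mean at dusk on both days. Its mean was 1.31 ± 0.05 at ZT0, 1.43 ± 0.03 at ZT4, 1.54 ± 0.07 at ZT8 and 1.68 ± 0.11 at ZT12 (log2, SD, n = 3). It then was 1.48 ± 0.01 at ZT16, 1.31 ± 0.06 at ZT20 and 1.24 ± 0.11 at ZT24. From there it went through 1.33 ± 0.07 at ZT28 and 1.52 ± 0.10 at ZT32 to 1.88 ± 0.13 at ZT36, and was 1.72 ± 0.15 at ZT40. GLYMA13G07610 thus fell further towards ZT12 and ZT36 than the chromosome 19 members did.

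As a part of the summed FPKM of the 3 members, GLYMA13G07610 made up 17.9% ± 0.569 at ZT0 and 18.6% ± 1.05 at ZT24, against 14.6% ± 1.09 at ZT12 and 13.1% ± 1.04 at ZT36 (SD, n = 3). The log2 ratio of GLYMA19G06370 to GLYMA13G07610 was 1.28 ± 0.09 in the 6 dawn libraries and 1.78 ± 0.16 in the 6 dusk libraries (SD), without overlap (1.17 to 1.37 against 1.57 to 2.00). The difference of -0.50 had an adjusted p of 0.0075 over the 3 pairs of members (exact permutation test, two-sided, within days), with -0.36 on the first day and -0.64 on the second. For GLYMA19G06340 and GLYMA13G07610 it was -0.46 (exact permutation test, adjusted p = 0.0075). The raw p of both, 0.005, is the smallest this design allows. Between the chromosome 19 members the difference was -0.04, with means of 0.24 at dawn and 0.28 at dusk (exact permutation test, adjusted p = 0.02). The ranges of this last pair overlapped, and paired by replicate number it did not pass (exact permutation test by sign changes over 6 pairs, adjusted p = 0.0938).

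Between libraries of a time point, the chromosome 19 members also stayed closer to each other than to GLYMA13G07610. Pearson's r of log2 values between GLYMA19G06370 and GLYMA19G06340 was 0.9983 over the 34 libraries, and 0.9956 over 33 libraries after the mean of each time point was taken out. With GLYMA13G07610 these were 0.9226 and 0.926 for GLYMA19G06370, and 0.9305 and 0.9191 for GLYMA19G06340. The 33 libraries include ZT40 replicate 2. There GLYMA19G06370, GLYMA19G06340 and GLYMA13G07610 were 0.89, 0.90 and 0.63 (log2) above the mean of its other replicates. Coefficients without it were not computed. The values of a library share its scaling and pooled plants, so the coefficients are descriptions, and reads shared between near-identical copies were not tested.

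**Figure D4:**
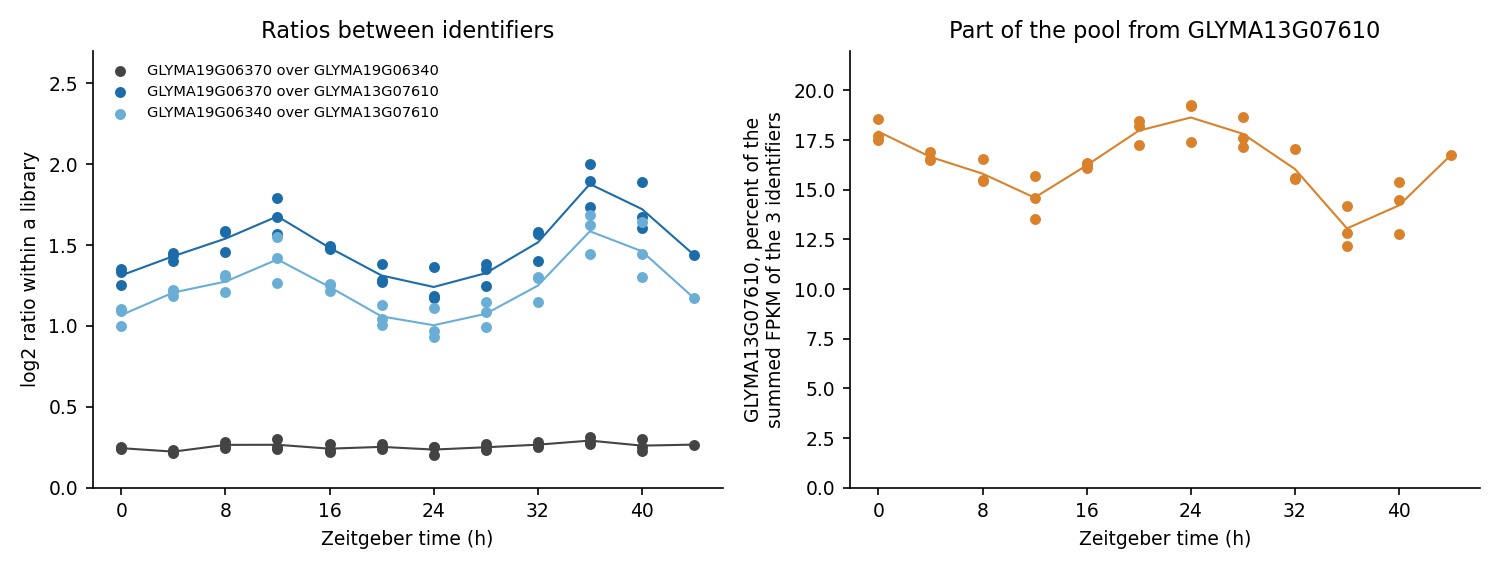
Left, log2 ratio of the FPKM of pairs of identifiers in the same library against zeitgeber time in h, 34 libraries, with lines through the means; right, GLYMA13G07610 as a percent of the summed FPKM of the 3 identifiers. The ratio of the chromosome 19 pair stays between 0.20 and 0.31, while both ratios to GLYMA13G07610 have their highest mean at ZT36, followed by ZT40 and ZT12, and its part of the sum is lowest at the same times (13.1%, 14.2% and 14.6%).

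Between the days the members were lower in the second 24 h at matched times of day, where 48.2% of all genes tested differed, 18.7% being lower and 29.5% higher. The difference was -0.23 ± 0.08 (log2, SE, adjusted p = 0.0164, limma) for GLYMA19G06370, -0.24 ± 0.08 (adjusted p = 0.0111, limma) for GLYMA19G06340 and -0.29 ± 0.07 (adjusted p = 0.00184, limma) for GLYMA13G07610. Their median was -0.24 and that of all genes tested was 0.03. With all 36 libraries and zeros kept, the difference of GLYMA13G07610, which has no zero, was smaller at -0.22 (adjusted p = 0.0226, limma). Relative to the median gene, 48% of genes differed, 23.4% being lower and 24.5% higher. The members' fall was of like size on that scale (-0.27, -0.28 and -0.32) and without ZT40 replicate 2 (-0.28, -0.29 and -0.31). It did not pass for any of the 3 without the filter on low values (limma, adjusted p = 0.497, 0.413 and 0.0834), nor without replicate 1, a fit of 22 libraries that holds no ZT44 (adjusted p = 0.137, 0.12 and 0.0579, limma), nor for GLYMA19G06370 without replicate 3 (adjusted p = 0.0615, limma). Plant age and time in constant conditions cannot be told apart here.

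No difference in the rhythm itself between the days passed the test for any member (adjusted p = 0.799, 0.785 and 0.591, limma F-test of the day by rhythm term), where 10.3% of all genes tested did, 2.25% with a larger and 8.02% with a smaller amplitude on the second day. Relative to the median gene it was 9.74%, with 2.37% larger and 7.36% smaller. Amplitudes were 0.40 on the first and 0.52 on the second day for GLYMA19G06370, 0.41 and 0.53 for GLYMA19G06340, and 0.56 and 0.67 for GLYMA13G07610. The amplitude differences of 0.11, 0.12 and 0.11 were each about as large as the mean SE of the day by cosine and day by sine terms (0.12, 0.12 and 0.11). That SE is only an approximate error of an amplitude difference. With ZT44 as a single library, the second day is the less certain.

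The 2 libraries with zeros still held a high RuBisCO small subunit value. In ZT44 replicates 2 and 3 GLYMA13G07610 was listed at 13884 and 13314 FPKM, the highest value of any identifier there, and 1.56 and 1.49 times that of replicate 1. Of the 87 identifiers with a mean of at least 1000 FPKM, the 2 chromosome 19 members were the only ones at 0 in any of the 36 libraries, and the 84 outside the members held no zero. Among the 792 with at least 100 FPKM the other 34 libraries held 3 zeros in all. A value of 0 for identifiers at 11031 FPKM or more in all other libraries may be a failed estimate and is not read as a level. The table holds estimates of another kind too: 302 identifiers had a positive value below 0.0001 FPKM in some library, far under the 0.0341 FPKM that 1 read was worth in the median low gene.

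Other abundant transcripts were also high in ZT44 replicates 2 and 3 and in ZT40 replicate 2. Of the 20 highest identifiers outside the members, all 20 were above replicate 1 in ZT44 replicates 2 and 3, by a median of 0.48 and 0.42 on the log2 scale, while the median of all 27458 genes was -0.07 and -0.06. The value of GLYMA13G07610 in them was higher than in replicate 1 by 0.64 and 0.58. In ZT40 replicate 2 the same 20 identifiers were all above the mean of replicates 1 and 3, by a median of 0.62, and the members by 0.89, 0.90 and 0.63 in the order above. Their part in the results was not tested beyond the fits without these libraries.

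The identifiers whose course was most like that of the members were sought among 9378 with a mean of at least 10 FPKM, by Pearson's r of log2 values over the 12 time point means. GLYMA01G38940 was closest to GLYMA19G06370 (r = 0.9888), to GLYMA19G06340 (r = 0.9858) and to the summed members (r = 0.9865). It had 126 and 105 FPKM at ZT0 and ZT24 and 68.7 and 56.6 FPKM at ZT12 and ZT36 (means of 3 libraries). The second for the summed members was GLYMA04G36600 (r = 0.9793), with 236 FPKM at ZT0 and 158 at ZT12. GLYMA14G02705 was closest to GLYMA13G07610 (r = 0.9844), with 121 FPKM at ZT0 and 68.7 at ZT12. These coefficients are descriptions over means that share their libraries. They do not single the identifiers out, since 159 of the 9378 had an r of at least 0.9 with GLYMA19G06370 and 169 with GLYMA13G07610.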

How the data were processed

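The authors deposited FPKM values, scaled by gene length and mapped total, in 1 table with 47011 identifiers and 36 columns, each named as the title of 1 sample. Per the submitters' processing notes, the tools included TopHat2 2.1.0 and HTSeq 0.6.0. Which tool computed the FPKM, from which build and annotation, is not given in the sources used here. FPKM are shares of a library, so abundant transcripts can move all others.

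The members and lists were chosen with earlier results of these data known. Tests ran in limma 3.58.1 under R 4.3.3, with a variance trend, on log2(FPKM + 1) of 34 libraries (ZT44 replicates 2 and 3 left out). They covered 27458 genes averaging 1 FPKM or more, and p-values were adjusted by Benjamini-Hochberg with a threshold of 0.05. The code of the fits was run on simulated data with independent normal noise for each gene and library. Such data hold no outlying library and no deviation shared within a library, so this run is no support for the results. Dawn-dusk tests of ratios were exact permutation tests. A test of the summed share was planned but is not reported, since the share was used to choose the members. Alternatives were all 36 libraries (zeros kept or missing), no ZT44, no ZT40 replicate 2, median-ratio rescaling, a pseudocount of 0.1, no filter, a replicate block, and libraries left out. The named identifiers followed a fixed rule: the members, the closest in course with at least 10 FPKM, and any other identifier of at least 1000 FPKM at 0 in both ZT44 libraries, of which there was none (0). Replicates are separate pools of seedlings.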

Additional observations from a re-analysis of the deposited data

Results flagged for a closer look

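GLYMA13G07610 gave a strong signal in the 2 libraries that the comparisons leave out: 13883.9 FPKM in ZT44 replicate 2 and 13313.8 FPKM in ZT44 replicate 3, both above its highest value in the other 34 libraries (11991 FPKM).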

How the results depend on the processing

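Amplitudes, dawn-dusk differences and day differences kept their calls and directions under median-ratio rescaling, a pseudocount of 0.1, zeros as missing and without the ZT44 time point. With all 36 libraries and zeros kept, the amplitudes of GLYMA19G06370 and GLYMA19G06340 were 1.186 and 1.152 with peaks at ZT7.8, their day differences -1.844 and -1.827, and their dawn-dusk differences 0.6731 and 0.7111, none of them called; this follows from the zeros. Without a filter on low values the estimates were unchanged but their errors rose (for GLYMA19G06370 from 0.06 to 0.22 on the amplitude) and calls were lost: adjusted p = 0.505 and 0.302 for GLYMA19G06370 and GLYMA19G06340 over the time points, amplitudes of 0.452 and 0.4616 (limma, adjusted p = 0.191 and 0.109), dawn-dusk differences of 0.6731 and 0.7111 (limma, adjusted p = 0.0979 and 0.0512), and day differences of -0.2314, -0.2442 and, for GLYMA13G07610, -0.2862 (limma, adjusted p = 0.497, 0.413 and 0.0834). The 34 libraries were the same in both fits. Each error is moderated by limma over all genes fitted, which were 46915 without the filter and 27458 with it. The cause was not tested further. Deviations of same-numbered libraries had a mean r of 0.006 over 165 pairs, from -0.319 to 0.385, with 34 above 0.1. Over 330 pairs with different numbers the mean r was -0.003. Their range and their count above 0.1 were not taken, so the 34 cannot be set against them. Same-numbered libraries were thus no more alike on average, but a mean cannot exclude that some of them were paired. The replicate block changed 1 call, the ratio of GLYMA19G06370 to GLYMA19G06340 (-0.038), and no other. With libraries or replicates left out, day differences ran from -0.2779 to -0.2043, from -0.2913 to -0.2148 and from -0.3203 to -0.2449 for GLYMA19G06370, GLYMA19G06340 and GLYMA13G07610, and the genes called for a rhythm between the days from 79 (without replicate 1) to 3702, with 435 and 971 without replicates 2 and 3, against 2820. Without a replicate the exact tests of the ratios cannot go below p = 0.0556 (36 splits); the share difference ran from 3.032 to 4.072, and the ratio differences from -0.5545 to -0.4352, from -0.5234 to -0.3926 and from -0.04256 to -0.03115. The share difference was 0.73 on the log2 scale. It was 4.84 percentage points with the members taken as a percent of the FPKM outside the 20 highest identifiers, which include the members. Both values are descriptions. At times chosen after seeing the data, the log2 ratio of GLYMA19G06370 to GLYMA13G07610 averaged 1.31 at ZT20 and 1.44 at ZT44 (1 library), against 1.54 at ZT8 and 1.52 at ZT32, with no test.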
